A study of Homo sapiens with 18 samples.

Results

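The comparison described here is the knockdown of PSF in LNCaP cells against a control siRNA. It rests on 4 of the 18 arrays of the series: siPSF with vehicle and with R1881, set against siControl with vehicle and with R1881. The arrays were chosen by label and not by signal, as pairs of LNCaP siPSF and siControl arrays that share a treatment. Titles of the siPSF arrays name no siControl replicate, and these arrays were grouped with siControl replicate 3. The group of 4 is called set 3 after that number. LNCaP is an established line of human prostate cancer cells that responds to androgen. The siPSF groups were transfected with siRNAs against PSF and the siControl groups with a control siRNA, in each case 48 h before hormone. Both were kept for 3 days in medium without phenol red and with 2.5% serum treated with charcoal to remove steroids. Vehicle was ethanol, and R1881, a synthetic androgen, was given at 10 nM, for a time not given in the sources used here. Each of the 4 groups is 1 array, and whether arrays were hybridised from separate cultures is not stated. The p-values below therefore reflect scatter among the arrays of each fit, some of which may be technical, and not the spread of repeated knockdowns. The siRNA sequences are not given in the sources used here. For comparison, LNCaP sets 1 and 2 held 8 arrays of siCTBP1-AS, siRNA against an RNA antisense to the corepressor gene CTBP1, and of their own siControl, with R1881 at 10 nM in set 1 and 1 nM in set 2. The labels mark the siCTBP1-AS of set 2, and in places its siControl, as #2, without saying how it differs from that of set 1. A set of VCaP, another androgen-responsive prostate cancer line, held 4 arrays of siPSF and of its own siControl, with vehicle or 1 nM R1881 and 5% of the treated serum. That set also held siCTBP1-AS, marked #2, with vehicle and with 1 nM R1881, 1 array each. Those arrays enter the fit of all 18 arrays.

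PSF, encoded by SFPQ, is an RNA- and DNA-binding protein of the nucleus that works in pairs with its relatives NONO and PSPC1 in paraspeckles, bodies built on the long RNA NEAT1. It takes part in splicing, in the processing of transcript ends, in DNA repair and in repression of transcription together with the Sin3A-HDAC corepressor complex. In neurons of the mouse, loss of the protein is known to impair transcription of very long genes. Androgen binds the androgen receptor, a nuclear receptor that raises genes such as KLK3, which encodes prostate-specific antigen, and lowers others.

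Signals are log2 units of RMA values per gene, and a difference of 1 log2 unit is a doubling of signal. Of 18418 named genes, 13813 were tested after the dimmest 25% over the LNCaP arrays had been left out. Across genes the 4 arrays correlated with each other at 0.9815 to 0.9924. Luminal prostate genes were bright, as the label of the line implies. KLK3 ranked at the 99.8th percentile of signals in the 4 arrays, KRT8 at the 99.4th and FOXA1 at the 99th, and 8 of 12 luminal genes were analysed here. Markers of other cell types ranked lower as groups, but not throughout: the endothelial ones lay at percentiles 10.9 to 33.3, the basal ones at 16.8 to 44.8, the fibroblast ones at 6.8 to 56.4, the leukocyte ones at 3.2 to 60.2 and the neuroendocrine ones at 2.8 to 82.1. The brightest were COL1A1 of fibroblasts, CD68 of leukocytes and ENO2 of neuroendocrine cells. PTPRC, which all leukocytes carry, was the dimmest of its list, at 3.6 and 3.8 with siPSF and 3.68 and 3.7 with siControl, while LYZ had 5.03 and 5.2 with siPSF against 4.44 and 4.52 with siControl. The summed log2 signals of the 5 endothelial markers were 27.45 and 26.4 with siPSF against 25.41 and 25.36 with siControl, and those of the 8 leukocyte markers 42.69 and 42.87 against 40.71 and 41.69. For the 9 neuroendocrine markers analysed the sums were 54.45 and 52.25 with siPSF against 52.39 and 50.51 with siControl, and for the 7 fibroblast markers 40.69 and 39.55 against 39.68 and 39.05. The 5 basal markers analysed summed to 31.94 and 32.12 with siPSF against 31.17 and 31.15 with siControl. Each of these sums was slightly higher with siPSF, and their part in the results was not tested.

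The targeted gene was lower with siPSF. SFPQ had signals of 10.47 with vehicle and 9.89 with R1881 in siPSF cells, against 11.15 and 10.79 in siControl cells. Both siPSF arrays lay below both siControl arrays, and the mean difference left 57.7% of the control signal. The change was -0.79 (SE 0.13, limma adjusted p = 0.113) in the fit of the 12 LNCaP arrays. The limma fit of the 4 arrays called it (adjusted p = 0.0218), as did the limma fit of all 18 (adjusted p = 0.015). In VCaP the same siRNA label went with 9.7 and 9.61, against 11.02 and 11.16, a difference of -1.44. The difference of 0.65 between the lines (SE 0.19) did not pass (limma adjusted p = 0.17), so a weaker knockdown in LNCaP was not shown. PSPC1, the partner protein gene, moved the other way, with 10.69 and 10.53 in siPSF cells against 9.85 and 9.56 in siControl cells. It rose by 0.9 in the fit of the 4 arrays (limma adjusted p = 0.0137) and in that of 18 (adjusted p = 0.00916), while the 12-array fit gave it 0.105. In VCaP the PSPC1 difference was 0.42 with vehicle and 0.59 with R1881. NONO, the remaining member of the family, had 12.45 and 12.34 with siPSF against 12.29 and 12.11 with siControl, a difference of 0.2 that no fit called.

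The fits used below were all made with limma and all gave the same mean difference for a gene, because only set 3 holds siPSF in LNCaP. They differ in where the spread comes from. The fit of the 12 LNCaP arrays has 4 residual degrees of freedom, all from disagreement between sets in the effects of R1881 and siCTBP1-AS. That spread includes the dose of R1881, which differs between sets 1 and 2, and whatever sets the siCTBP1-AS marked #2 in set 2 apart from that of set 1. The fit of the 4 arrays has 1, the disagreement between the vehicle and the R1881 difference, and the fit of all 18 arrays has 8. A gene is called where its p-value, adjusted by the Benjamini-Hochberg method over the 13813 genes, is under 0.05. In the fit of 12 arrays 1 gene was called higher (0.00724%) and 0 lower (0%), with 579 higher (4.19%) and 854 lower (6.18%) at an unadjusted p under 0.05. Relaxing the threshold on the adjusted p to 0.1 gave 38 genes in both directions together (0.275%). In the fit of the 4 arrays 299 genes were called higher (2.16%) and 609 lower (4.41%). With all 18 arrays 45 were called higher (0.326%) and 103 lower (0.746%). Of the 299 and the 609, 216 and 487 also had an unadjusted p under 0.05 in the fit of 12 arrays. Without the siControl arrays of replicate 1 the LNCaP fit across sets called 24 higher and 62 lower. The calls of the 4-array fit rest on how closely the vehicle and the R1881 differences match relative to their size, and do not show what a repeated knockdown would give.

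The vehicle and the R1881 pair share no array, and their differences can be set against each other. Across the 13813 genes, which are not independent replicates, they correlated at 0.64 (Pearson) and 0.58 (Spearman). The same sign appeared in both treatments for 4876 genes higher (35.3%) and 4912 lower (35.6%) with siPSF. More than 1 log2 unit in both was reached by 22 genes higher (0.159%) and 30 lower (0.217%). THBS1, ACTA2 and ACTG2 stood apart from all others on the upper side, and INPP4B had the lowest mean difference.

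**Figure D1:**
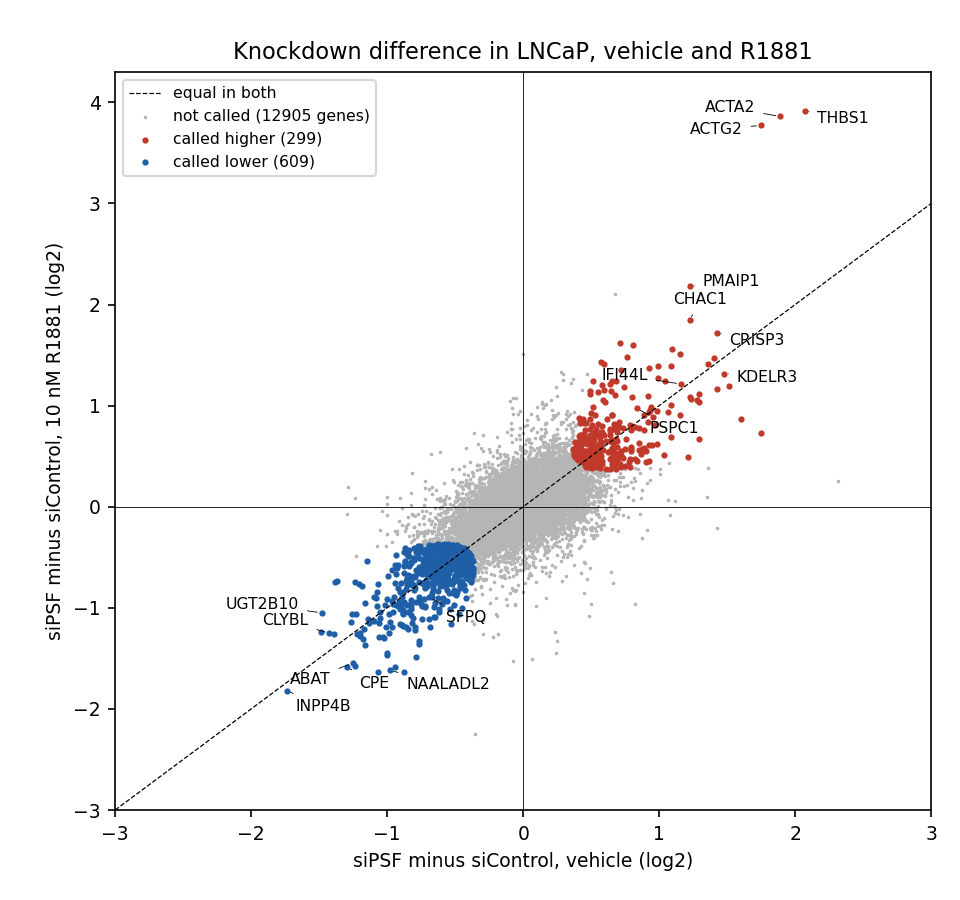
Difference of log2 signal between siPSF and siControl in LNCaP with vehicle (horizontal axis) and with 10 nM R1881 (vertical axis), 1 point per gene; red and blue points are the 299 and 609 genes called by limma in the fit of the 4 arrays. The calls depend on how closely the vehicle and the R1881 difference match, so nearness of called genes to the line of equal differences is built in. THBS1, ACTA2 and ACTG2 lie above that line at 3.77 to 3.92 with R1881.

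The largest increases were in a pair of smooth muscle actin genes and in THBS1. ACTG2, the enteric smooth muscle actin gene, had signals of 7.04 with vehicle and 9.2 with R1881 in siPSF cells, against 5.29 and 5.43 in siControl cells. It was the gene called in the fit of 12 arrays, where it rose 6.77-fold (log2 2.76, SE 0.17, limma adjusted p = 0.00312). Without the R1881 pair its difference was 1.75 and was not called (limma adjusted p = 0.937), and without the vehicle pair it was 3.77 (adjusted p = 0.0335). ACTA2, the aortic smooth muscle actin gene, had 8.71 and 10.56 in siPSF cells against 6.83 and 6.7 in siControl cells. It rose 7.33-fold in the fit of the 4 arrays (limma adjusted p = 0.0285), and its value with 12 arrays was 0.0859. Probes of closely related actins can read each other's transcripts, and their shares were not separated here. THBS1, which encodes thrombospondin-1, an extracellular glycoprotein able to activate latent TGF-beta, had 8.93 and 11.29 in siPSF cells against 6.85 and 7.38 in siControl cells. It rose 7.97-fold in the fit of the 4 arrays (limma adjusted p = 0.0243), and its value with 12 arrays was 0.0804.

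For these genes both siPSF arrays lay above both siControl arrays. The R1881 pair gave the larger difference in each, at 3.77 for ACTG2, 3.86 for ACTA2 and 3.92 for THBS1, next to 1.75, 1.89 and 2.07 in the vehicle pair. That gain in the R1881 response was not called for any of the 3 (limma adjusted p = 1 each).

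The actin genes used by every cell had differences of 0.1 and 0.11, which no fit called. ACTB, the main cytoplasmic actin gene, had 13.85 and 13.88 with siPSF against 13.75 and 13.77 with siControl, and ACTG1 had 13.51 and 13.4 against 13.41 and 13.28. Serum response factor (SRF) and its MRTF partners drive actin and muscle genes, and 29 genes of that list were tested. In the fit of the 4 arrays 3 of the 29 were called higher and 0 lower (10.3% higher, beside 2.16% of all genes). The last of the 3, CNN2, encoding an actin-binding calponin, rose by 0.66 to signals of 10.16 and 10.4, against 9.4 and 9.83. The list's median difference was 0.1, beside 0 over all genes tested. CNN1 and TAGLN, usual companions of the smooth muscle actins, had differences of -0.05 and 0.04. In VCaP ACTA2 differed by -0.45 and -0.11 and ACTG2 by -0.29 and 0.18, none of them called. In the TGF-beta list THBS1 was called higher, and the receptor genes BMPR2 and TGFBR1 fell by 0.58 and 0.43 in the fit of the 4 arrays, out of 19 tested (5.26% higher and 10.5% lower, beside 2.16% and 4.41% of all genes). CCN2, which TGF-beta and SRF are known to induce, differed by 0.

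The promoter of ACTG2 is shown because ACTG2 was called in all 3 fits. SRF binds the CArG box, which was searched as CC, 6 letters of A or T, and GG, a motif that reads the same in class on both strands and was counted on the plus strand. In the 250 bases before the start of ACTG2 (RefSeq, GRCh38.p14, chr2:73892758-73893007, plus strand) there were 2 matches, beginning 110 and 73 bases before the start, printed in capitals.
ACTG2: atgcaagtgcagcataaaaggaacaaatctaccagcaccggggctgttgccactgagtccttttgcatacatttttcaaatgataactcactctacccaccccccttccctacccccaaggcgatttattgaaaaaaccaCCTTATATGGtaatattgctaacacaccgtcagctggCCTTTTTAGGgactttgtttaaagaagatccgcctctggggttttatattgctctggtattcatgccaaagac
Such a match stood in 1.06% of the 10878 promoters of tested genes and in 6 of 26 in the SRF list (23.1%). In the windows of ACTA2 and THBS1, each before the 1 RefSeq start used, this strict pattern had no match. Looser forms of the box and other starts of these genes were not searched, so the absence says nothing about those. Among genes called in the fit of the 4 arrays the share was 2.13% of 235 higher and 1.38% of 506 lower.

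**Figure D2:**
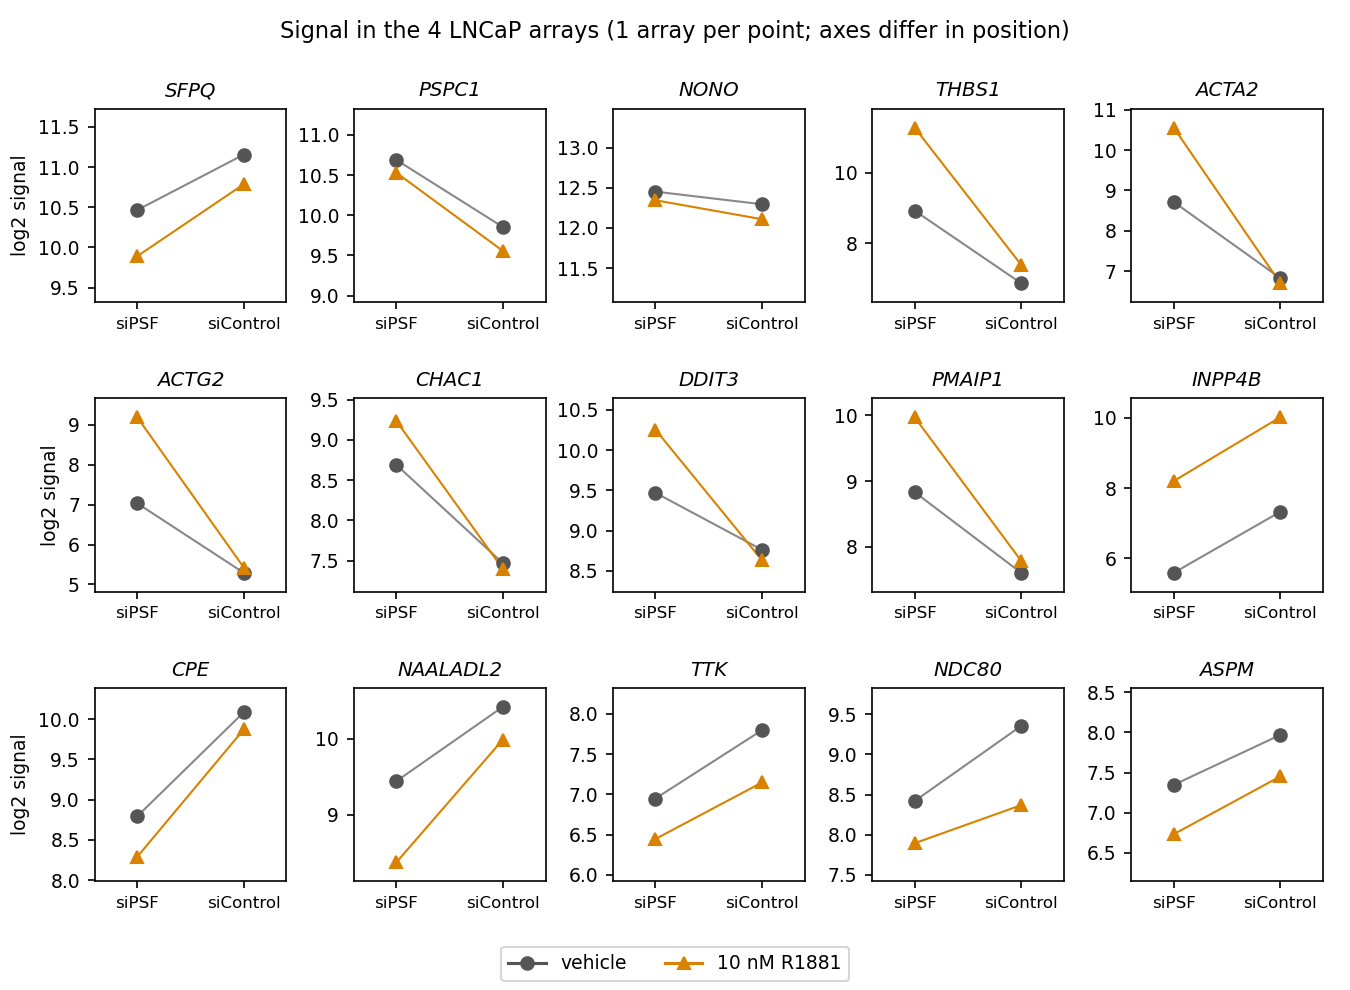
Log2 signal in the 4 LNCaP arrays for 15 genes, siPSF to the left of siControl, with vehicle as grey circles and 10 nM R1881 as orange triangles; each point is 1 array and the axes differ in position. SFPQ and the genes from INPP4B on are lower with siPSF in both treatments, the genes from THBS1 to PMAIP1 are higher, and NONO differs by 0.2.

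Genes of the amino acid and endoplasmic reticulum stress response were the next group with siPSF-high members. Of 33 tested, 7 were called higher and 1 lower in the fit of the 4 arrays (21.2% and 3.03%, beside 2.16% and 4.41% of all genes), and the list's median difference was 0.17. The fit of 12 arrays called 0 of the 33, and that of 18 arrays called 1 higher and 0 lower. CHAC1, an enzyme gene that breaks down glutathione and a target of ATF4, had 8.69 and 9.24 with siPSF against 7.47 and 7.4 with siControl. It rose 2.9-fold (limma adjusted p = 0.0137 with 4 arrays, 0.291 with 12). SLC7A5, the gene of a leucine transporter, had 8.15 and 7.76 against 6.86 and 6.65, a rise of 1.2 called in the fits of 4 and of 18 arrays (limma adjusted p = 0.0123 and 0.0243).

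DDIT3, encoding the stress factor CHOP, had 9.47 and 10.25 with siPSF against 8.76 and 8.63 with siControl. TRIB3, a pseudokinase gene downstream of CHOP, had 9.07 and 9.92 against 8.58 and 8.8. Both rose in the fit of the 4 arrays, by 1.17 and 0.81, as did ATF4 itself and SLC7A11, a cystine transporter gene, by 0.5 each and SESN2 by 0.75. Chaperone genes of the same list gave no call upwards: HSPA5 had 12.25 and 12.73 with siPSF against 12.47 and 12.93 with siControl, and the co-chaperone gene DNAJC3 fell by 0.54. Apart from ATF4, the members called higher are known targets of ATF4. In VCaP CHAC1 differed by 1.03 and 1.42 and DDIT3 by 0.33 and 0.38, none called, and the list median was 0.11.

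ATF4 and CHOP bind elements holding TGATGNAA. The CHAC1 promoter (RefSeq, GRCh38.p14, chr15:40953221-40953470, plus strand) is printed as the example of this group, with its match, which lies on the minus strand 209 to 202 bases before the start, in capitals.
CHAC1: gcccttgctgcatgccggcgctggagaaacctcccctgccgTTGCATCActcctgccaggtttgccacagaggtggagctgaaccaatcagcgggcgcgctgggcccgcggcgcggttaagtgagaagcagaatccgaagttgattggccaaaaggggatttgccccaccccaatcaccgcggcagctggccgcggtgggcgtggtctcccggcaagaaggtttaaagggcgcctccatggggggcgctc
The motif, searched on both strands, stood in 1.53% of all 10878 promoters and in 4 of 30 in the stress list (13.3%). Among genes called in the fit of the 4 arrays the share was 1.28% of those higher and 2.37% of those lower.

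Further siPSF-high genes were found among regulators of cell death and p53 targets, though the median of the apoptosis list lay near 0. PMAIP1, encoding the BH3-only protein NOXA, had 8.83 and 9.97 with siPSF against 7.6 and 7.79 with siControl, and rose 3.27-fold in the fits of 4 and 18 arrays (limma adjusted p = 0.0236 and 0.0406). BMF, another BH3-only gene, had 9.34 and 8.4 against 8.05 and 7.37, a rise of 1.16 in the fit of the 4 arrays. These were 2 of the 22 apoptosis genes tested (9.09%, beside 2.16% of all genes), and 0 were called lower. The list's median difference was 0.02, with 10 genes higher and 8 lower in both treatments. Among 29 cyclin-dependent kinase inhibitors and p53 targets, PMAIP1, SESN2 and TP53INP1 were called higher and CDKN2A lower in that fit (10.3% and 3.45%, beside 2.16% and 4.41% of all genes). CDKN1A and MDM2, the textbook p53 targets, differed by 0.12 and 0.02, and 20 of the 29 were higher with siPSF in both treatments, 69% beside 35.3% of all genes. JUN, an immediate early transcription factor gene, had 10.39 and 10.2 with siPSF against 9.4 and 8.93, a rise of 1.13 called with 4 and with 18 arrays. MYC fell by 0.67 in the fit of the 4 arrays, to 10.35 and 9.5, against 11.04 and 10.15.

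The other 10 of the 15 largest increases were CRISP3, CIB2, KDELR3, PLEKHS1, TMPRSS4, ELF5, AHNAK2, ELOVL2, SERPINE2 and HLA-DPB1. Over all 15 the differences ran from 1.09 to 2.07 with vehicle and from 0.73 to 3.92 with R1881, and 11 of them were also called with 18 arrays. CRISP3, a secreted protein gene raised in many prostate cancers, had 8.26 and 9.38 with siPSF against 6.84 and 7.66 with siControl. CIB2, encoding a calcium- and integrin-binding protein, had 7.5 and 7.63 against 6.09 and 6.16. ELOVL2, which lengthens polyunsaturated fatty acids, rose by 1.29, KDELR3, a receptor that returns proteins to the endoplasmic reticulum, by 1.4, and SERPINE2, a protease inhibitor gene, by 1.24 in the fit of the 4 arrays. HLA-DPB1 has close relatives whose transcripts its probes may read, so its value of 1.24 is uncertain. In VCaP 6 of the 15 were higher with siPSF in both treatments, where 28.1% of all genes were.

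Among the decreases, INPP4B, a phosphoinositide phosphatase gene and a known androgen target in these cells, had the lowest value. It had 5.59 and 8.2 with siPSF against 7.33 and 10.02 with siControl, and fell to 29.1% of the control signal in the fit of the 4 arrays (limma adjusted p = 0.0123, 0.357 with 12). CPE, encoding the prohormone-processing carboxypeptidase E, had 8.79 and 8.29 against 10.09 and 9.87. It was called with 4 and with 18 arrays and stood at an adjusted p of 0.0694 with 12 (limma), as did ABAT, the GABA transaminase gene, SLC25A21, a mitochondrial carrier gene, SCFD2 and NAALADL2. NAALADL2 had 9.44 and 8.37 with siPSF against 10.42 and 9.99 with siControl. SCFD2 had 8.03 and 7.62 against 9.42 and 8.87. That both siPSF arrays lay below the siControl array of the same treatment was a condition for naming these genes.

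The other genes of the 15 largest decreases were PAM, DNASE2B, CLYBL, UGT2B10, LUZP2, CADPS2, EPHA7, ZNF385B and TENM1. Their differences, with those above, ran from -1.74 to -0.87 with vehicle and from -1.82 to -1.05 with R1881. PAM amidates peptide hormones, CADPS2 serves the release of dense-core vesicles, and EPHA7 is an ephrin receptor. UGT2B10, of a family of near-identical glucuronosyltransferase genes, is uncertain for that reason. In VCaP 10 of the 15 were lower with siPSF in both treatments, where 33.2% of all genes were, and CPE, ABAT, CLYBL, SCFD2 and NAALADL2 were called lower there in the fit of 18 arrays.

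Many of the siPSF-low genes were long, a property that had no part in choosing the arrays. Of the 15 largest decreases 9 were over 300 kb from start to end of the gene, with a median of 419.6 kb. Of the 15 largest increases 0 were over 300 kb or over 100 kb, with a median of 26.9 kb. Over all 609 genes called lower in the fit of the 4 arrays the median length was 81.8 kb, over the 299 called higher 29.5 kb, and over all genes with a length 25.4 kb. The share called lower was 2.16% of 3702 genes up to 10 kb, 2.41% of 3903 from 10 to 30 kb, 4.2% of 3999 from 30 to 100 kb, 8.8% of 1784 from 100 to 300 kb and 26.8% of 407 over 300 kb. The share called higher stayed between 1.23% and 2.58%. In the same order the median difference was 0.03, 0.01, 0, -0.03 and -0.24.

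With 18 arrays 34 of the 407 genes over 300 kb were called lower (8.35%, beside 0.746% of all genes) and 0 higher. With 12 arrays 120 of them had an unadjusted p under 0.05 and were lower (29.5%, beside 6.18%). Lower in both treatments were 258 of the 407 (63.4%, beside 35.6% of all genes). The VCaP arrays, which share none with these, gave 260 of 407 lower in both treatments (63.9%, beside 33.2%), and 185 were lower in all 4 pairs (45.5%, beside 14.7%). With siCTBP1-AS in LNCaP 230 of 407 had a negative difference (56.5%, beside 52.7%), with a median of -0.03. That count takes the sign of the mean difference and not of both treatments, so it is not on the scale of the siPSF counts. From 100 to 300 kb the median was -0.05 with siCTBP1-AS and -0.03 with siPSF, and 1057 of 1784 were negative with siCTBP1-AS (59.2%). Of the 109 genes over 300 kb called lower in LNCaP with 4 arrays, 86 were lower in both VCaP pairs (78.9%). The median siControl signal was 7.77 for genes over 300 kb, against 8.32 for all genes, and from the shortest to the longest of the 5 classes it was 7.71, 8.36, 8.7, 8.63 and 7.77. The part of signal level in these shares was not tested.

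**Figure D3:**
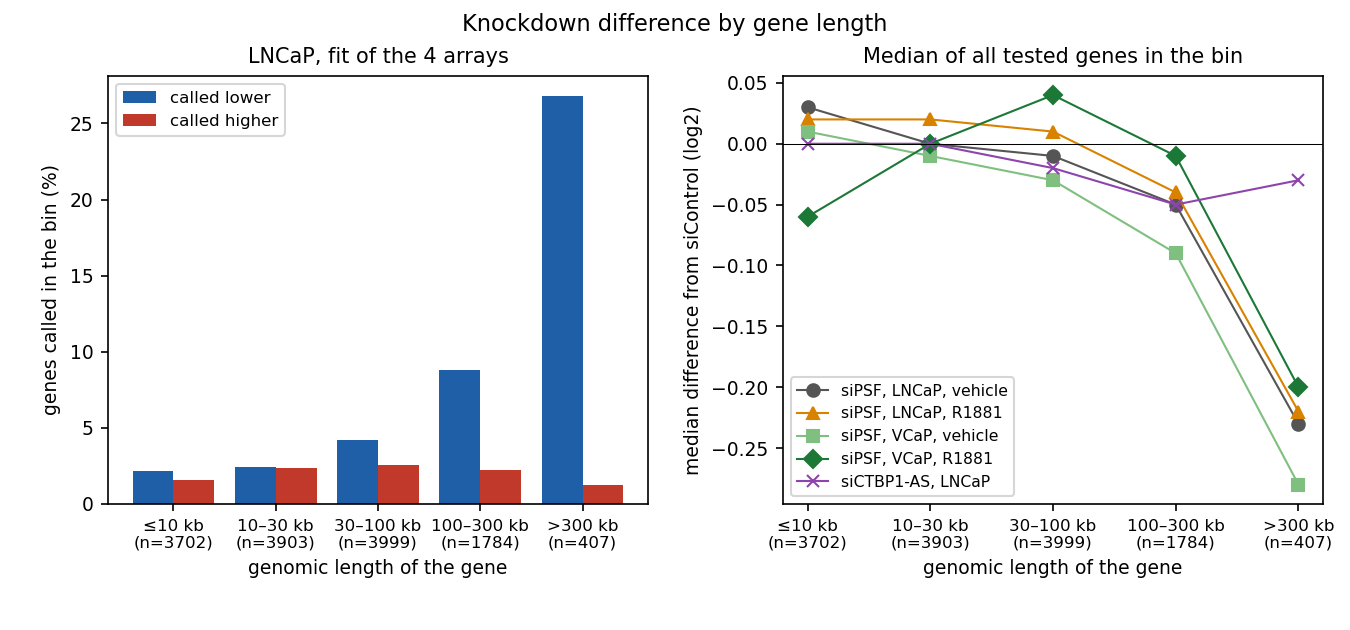
Left, share of tested genes called lower (blue) and higher (red) with siPSF in LNCaP by limma on the 4 arrays, by genomic length of the gene; right, median log2 difference from siControl in each length bin for siPSF in both lines and treatments and for siCTBP1-AS in LNCaP. The share called lower is 26.8% over 300 kb against 2.16% up to 10 kb, and the 4 siPSF medians over 300 kb lie between -0.28 and -0.2 while that of siCTBP1-AS is -0.03.

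Genes that had been chosen after their values were seen show the range of functions among the long ones. ZBTB20, a transcriptional repressor gene of 833 kb, had signals of 7.14 and 7.09 with siPSF against 8.34 and 8.37 with siControl, and -1.03 and -0.86 as its VCaP differences. KCNMA1, a potassium channel gene of 768 kb, had 8.18 and 9.34 against 9.15 and 10.53, with -1.09 and -1.83 in VCaP. EPHA6, an ephrin receptor gene of 947 kb, had 6.76 and 6.26 against 8.02 and 7.4, with -0.83 and -0.38 in VCaP. All 3 fell in the fit of the 4 LNCaP arrays, by 1.24, 1.08 and 1.2. Length did not go with a lower signal in every line: TENM1 and CADPS2, at 828 and 568 kb, fell by 1.24 and 1.26 in LNCaP and had VCaP differences of 0.03 and -0.17, and of -0.02 and 0.17.

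Genes of mitosis were lower with siPSF in LNCaP. Of 39 tested, 25 were called lower in the fit of the 4 arrays and 0 higher (64.1%, beside 4.41% of all genes). All 39 were lower in both treatments, with a median difference of -0.63 with vehicle and -0.47 with R1881. In the fits of 12 and of 18 arrays 0 of them were called (limma), and 21 had an unadjusted p under 0.05 in that of 12. In bulk RNA fewer dividing cells and less of these transcripts per cell cannot be told apart.

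TTK, a spindle checkpoint kinase gene, had 6.95 and 6.45 with siPSF against 7.8 and 7.15 with siControl, and fell to 58.4% of the control signal in the fit of the 4 arrays (limma adjusted p = 0.0198). NDC80 and NUF2 encode the microtubule-binding arm of the kinetochore. NDC80 had 8.42 and 7.89 against 9.35 and 8.37, and NUF2 8.28 and 7.71 against 9.02 and 8.31. ASPM, a spindle pole gene, had 7.35 and 6.73 against 7.97 and 7.45. These genes were also lower with R1881 than with vehicle under either siRNA, so that for NDC80 the siPSF vehicle array lay near the siControl R1881 array.

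In VCaP the same genes stood the other way. The median difference over the 39 was 0.32 with vehicle and 0.64 with R1881, and 38 were higher with siPSF in both treatments (beside 28.1% of all genes). TTK had 8.92 and 8.17 with siPSF in VCaP against 8.84 and 7.6 with siControl, and ASPM 9.59 and 9.06 against 9.29 and 8.37. The difference between lines was -1.1 for TTK and -1.16 for ASPM, with limma adjusted p = 0.137 and 0.0926 over all genes, and 0 of the 39 passed that test.

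Replication genes were often lower in both LNCaP treatments, but the share of them called was near that of all genes. Of 44, 30 were lower with siPSF in both (68.2%, beside 35.6% of all genes), and 2 were called lower in the fit of the 4 arrays (4.55%, beside 4.41%), RRM2, a subunit of ribonucleotide reductase, at -0.67 and CDC6, a loader of the replicative helicase, at -0.63. The list's median was -0.47 with vehicle and -0.12 with R1881 in LNCaP, and 0.22 and 0.62 in VCaP. Of 34 DNA repair genes 7 were called lower (20.6%) and 0 higher, and 24 were lower in both treatments (70.6%), with a median of -0.28 with vehicle and -0.14 with R1881. XRCC4, which joins DNA ends with ligase 4, had 6.35 and 6.5 with siPSF against 7.61 and 7.56 with siControl, and fell by 1.16 in the fits of 4 and of 18 arrays (limma adjusted p = 0.0123 and 0.00908). At 297 kb it is also a long gene, and its VCaP differences were -0.7 and -0.33, which were not called. Replication-dependent histone genes gave 0 calls of 39, with a median of -0.1 in LNCaP and 0.34 in VCaP. Of the 34 genes of the 3 cell-cycle and repair lists called lower in LNCaP, 31 were higher in both VCaP pairs (91.2%, beside 28.1% of all genes). Called or not, 38 of 39 mitosis, 38 of 44 replication and 18 of 34 repair genes were higher in both VCaP pairs.

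Mitotic promoters carry the CHR element, TTTGAA, near CCAAT boxes. Both were searched on both strands in the 250 bases before the start, and the promoters of ASPM (RefSeq, GRCh38.p14, chr1:197146670-197146919, minus strand) and DLGAP5, a spindle protein gene (chr14:55191586-55191835, minus strand), are printed 5′ to 3′ along the gene as examples of the list, with matches in capitals.
ASPM: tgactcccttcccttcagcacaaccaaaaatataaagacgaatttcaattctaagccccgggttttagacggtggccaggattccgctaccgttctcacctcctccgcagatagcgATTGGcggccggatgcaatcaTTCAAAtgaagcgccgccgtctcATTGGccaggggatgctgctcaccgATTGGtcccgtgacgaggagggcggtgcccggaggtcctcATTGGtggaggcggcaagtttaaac
DLGAP5: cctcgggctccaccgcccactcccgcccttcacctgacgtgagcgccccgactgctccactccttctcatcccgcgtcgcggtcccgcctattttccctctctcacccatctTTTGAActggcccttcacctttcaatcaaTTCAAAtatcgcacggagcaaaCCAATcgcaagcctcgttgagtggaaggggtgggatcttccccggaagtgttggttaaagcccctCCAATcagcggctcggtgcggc
ASPM held 1 TTTGAA and 4 CCAAT, and DLGAP5 2 and 2. Of 33 mitosis promoters 17 held TTTGAA (51.5%), beside 8.3% of all, and 23 held CCAAT (69.7%), beside 34.6%. These shares cover the promoters of the list whether or not the gene was called. TTTGAA stood in 15.2% of the 506 promoters of genes called lower and in 8.94% of the 235 of genes called higher in the fit of the 4 arrays. Genes called lower include members of the mitosis list, so the 15.2% is not separate from that list. DLGAP5 itself had 9.23 and 8.57 with siPSF against 9.87 and 9.25 with siControl.

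**Figure D4:**
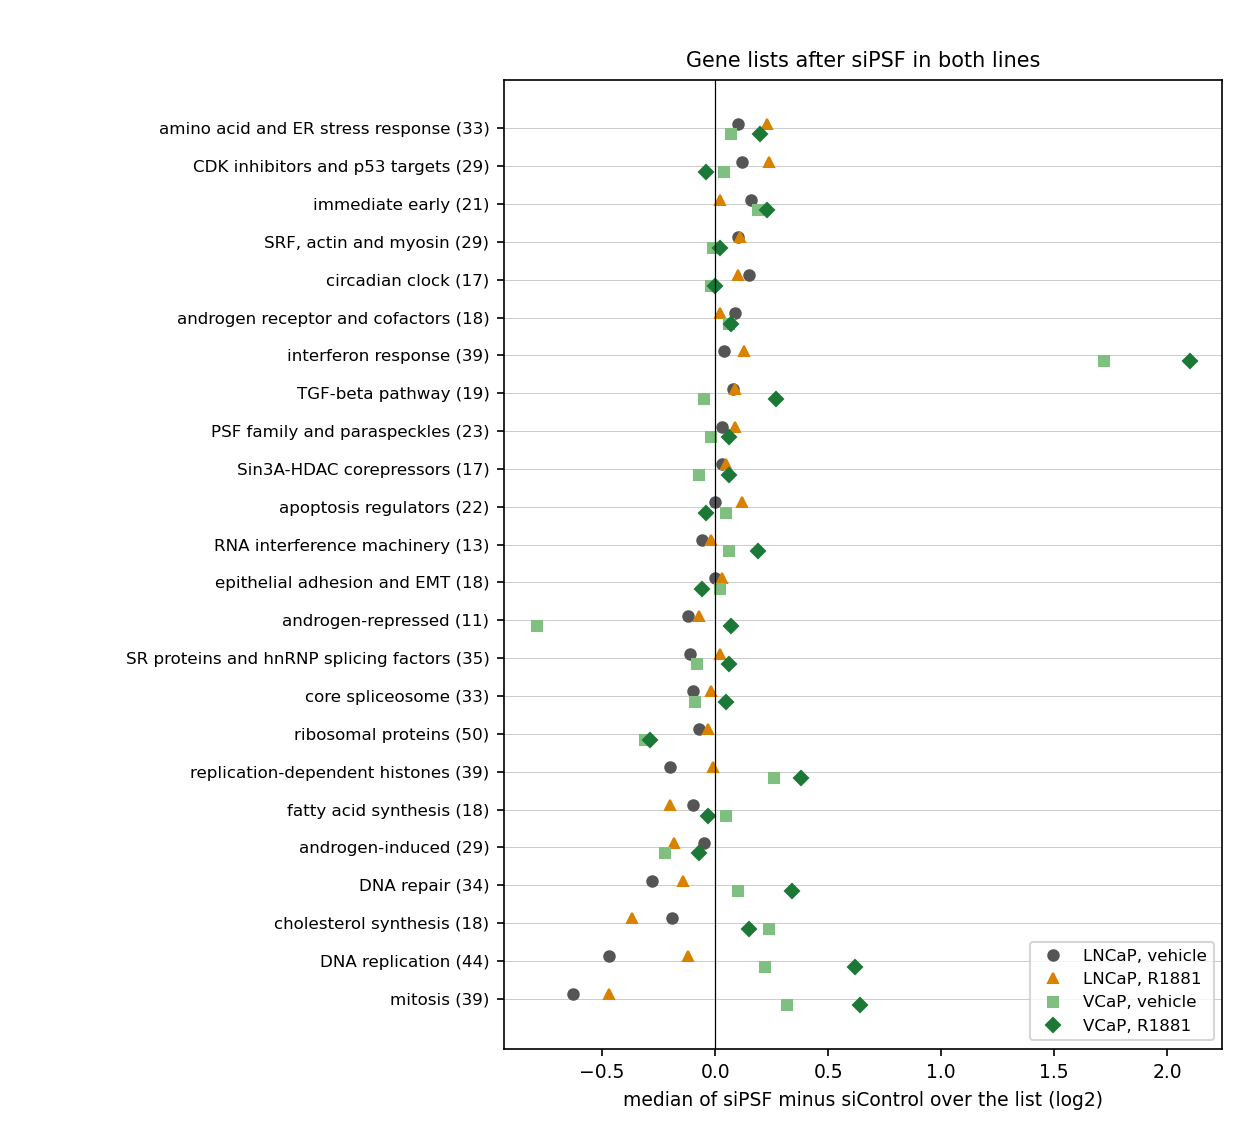
Median log2 difference between siPSF and siControl over the tested genes of each list (number in brackets), for LNCaP with vehicle (grey circles) and 10 nM R1881 (orange triangles) and for VCaP with vehicle (light green squares) and 1 nM R1881 (dark green diamonds). Mitosis lies at -0.63 and -0.47 in LNCaP and at 0.32 and 0.64 in VCaP, and the interferon list at 0.04 and 0.13 in LNCaP and at 1.72 and 2.1 in VCaP.

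Lipid synthesis genes were partly lower. Of 18 cholesterol synthesis genes 14 were lower with siPSF in both treatments (77.8%, beside 35.6% of all genes), and 3 were called lower (16.7%, beside 4.41%) and 0 higher in the fit of the 4 arrays. INSIG1, which holds the sterol sensor SCAP in the endoplasmic reticulum, had 8.95 and 9.93 with siPSF against 9.6 and 11.02 with siControl, a fall of 0.87. HMGCS1, the enzyme that makes HMG-CoA, had 8.79 and 10.52 against 9.32 and 11.27, and IDI1 fell by 0.66. In VCaP 14 of the 18 were higher in both treatments, where 28.1% of all genes were, with a median of 0.18 beside -0.27 in LNCaP. ELOVL6 and ME1, of fatty acid synthesis, fell by 0.73 and 0.56 in the fit of the 4 arrays, and ELOVL2 was called higher. Among the 18 tested these made 11.1% lower and 5.56% higher, beside 4.41% and 2.16% of all genes.

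The design crossed the siRNAs with R1881, so that a change of the androgen response under siPSF could be tested. In the fit of 12 arrays limma called 0 genes higher (0%) and 0 lower (0%) for that change, and 150 had an unadjusted p under 0.05 (1.09%). The response under siPSF rests on 1 pair of arrays, and the spread of that fit includes the R1881 dose, which differs between sets 1 and 2. The lack of calls therefore does not show that the response was unchanged. Across genes the R1881 responses with siPSF and with siControl correlated at 0.82 (Pearson) and 0.65 (Spearman). Among 29 androgen-induced genes the median response was 1.77 with siPSF and 1.92 with siControl. Among 11 androgen-repressed genes it was -1.6 and -1.5. KLK3 had 12.82 with vehicle and 13.8 with R1881 in siPSF cells, against 13.1 and 13.98 in siControl cells. STEAP4, a metalloreductase gene, gained 5.58 with siPSF and 7.06 with siControl.

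The level of androgen-induced genes, apart from the response, was called lower for 3 of 29 in the fit of the 4 arrays (10.3%, beside 4.41% of all genes): INPP4B, NDRG1 and CENPN. NDRG1, a stress- and androgen-responsive gene, had 9.56 and 12.43 with siPSF against 10.18 and 12.97. Of the androgen-repressed genes UGT2B10, BCHE and PRUNE2 were called lower, 3 of 11 (27.3%), and 0 higher. The list medians were -0.14 and -0.02. ETV1, the ETS oncogene rearranged in LNCaP, fell by 0.82 in the fits of 4 and 18 arrays, with 10.58 and 10.79 with siPSF against 11.24 and 11.79 with siControl. It was the 1 gene called in the fit of the 4 arrays among 18 of the androgen receptor's cofactors and partner factors. That share of 5.56% was near the 4.41% called lower of all genes.

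Of 17 Sin3A-HDAC corepressor genes 0 were called in any of the 3 fits, and none of them had an unadjusted p under 0.05 in that of 12. CTBP1 had 10.72 and 10.34 with siPSF against 10.69 and 9.68 with siControl. In the list of the PSF family and paraspeckles HNRNPH3 rose by 0.44 and FIGN fell by 0.69 in the fit of the 4 arrays. With PSPC1 and the targeted SFPQ they made 2 of 23 called higher (8.7%, beside 2.16% of all genes) and 2 lower (8.7%, beside 4.41%). In the same list MALAT1, a long nuclear RNA, differed by 0.11. Of 35 SR and hnRNP splicing factors MBNL1 was called lower (2.86%), and of 33 core spliceosome genes SF3B3 (3.03%), beside 4.41% of all genes. For splicing itself the gene-level signal gives no reading. No call in that fit fell on the 13 RNA interference genes, 18 adhesion genes or 50 ribosomal protein genes, whose medians were -0.01, -0.02 and -0.06. The members with the largest differences were PRKRA at 0.34 and DROSHA at -0.32, CLDN4 at 0.41 and JUP at 0.37, and RPS24 at -0.4 and RPL23 at -0.29. Among corepressor genes RBBP7, a histone-binding subunit, differed by -0.22, and among histone genes H2BC14 by -0.41 and H3C10 by -0.4.

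Among marker genes of other cell types, 2 were called higher in the fit of the 4 arrays. ENO2, the neuron-specific enolase used as a neuroendocrine marker, had 10.29 and 9.96 with siPSF against 9.34 and 8.97 with siControl. CHGA and SYP, the defining markers of that type, had 4.91 and 4.98 against 4.91 and 4.95, and 5.51 and 6.04 against 5.83 and 5.67. CD68, a macrophage lysosome gene, rose by 0.44, with PTPRC at the values given above. Of the 8 luminal, 4 basal, 4 fibroblast and 1 endothelial markers tested 0 were called, the last being VWF with a difference of 0.53. Among the others ACP3 differed by -0.33, ITGB4 by 0.25, KRT5 by 0.24, PDGFRB by -0.08 and COL1A1 by 0.07. Clock output genes DBP and NFIL3 rose by 0.72 and 0.52 in the same fit. They were 2 of 17 clock genes (11.8%, beside 2.16% of all genes), and 0 of the 17 were called lower.

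The line comparison asked which effects of siPSF differed between LNCaP and VCaP. In the fit of 18 arrays limma called 15 genes with a higher difference in LNCaP (0.109%) and 11 with a lower (0.0796%). Without the siControl arrays of replicate 1 the counts were 90 and 113, and without those of replicate 2 they were 135 and 121. Across genes the LNCaP and VCaP differences correlated at 0.18 (Pearson). In VCaP itself 97 genes were called higher (0.702%) and 229 lower (1.66%). Of the 299 genes called higher in LNCaP with 4 arrays 124 were higher in both VCaP pairs (41.5%, beside 28.1% of all genes), and of the 609 called lower 335 were lower in both (55%, beside 33.2%).

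Of the 11 lower ones 5 belonged to the interferon list. MX1, an antiviral GTPase gene, had 5.61 and 5.51 with siPSF in LNCaP against 5.65 and 5.37 with siControl, while VCaP had 8.87 and 9.61 with siPSF against 5.04 and 5.47. The difference between lines was -3.94 (SE 0.22, limma adjusted p = 5.16e-06). IFIT1, which binds foreign RNA ends, had 4.92 and 4.96 against 5.64 and 4.71 in LNCaP, with -4.76 between the lines (SE 0.74, limma adjusted p = 0.0216). IFITM1 had -4.29, RSAD2 -3.48 and DDX60 -3.19.

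Over the 39 interferon genes tested the median was 0.06 in LNCaP and 1.96 in VCaP, and all 39 were higher with siPSF in both VCaP treatments. In VCaP 25 of them were called higher and 0 lower in the fit of 18 arrays, where 0.702% and 1.66% of all genes were. With siCTBP1-AS in LNCaP their median difference was 2.4. In the 4-array fit 4 of the 39 were called higher with siPSF in LNCaP (10.3%, beside 2.16% of all genes). IFI44L had 6.3 and 5.93 against 5.14 and 4.72, TLR3, a receptor for double-stranded RNA, rose by 1.04, and IFI44 and IRF1 by 0.51 each.

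Of the 15 higher ones AHNAK2, a scaffold protein gene, had 7.08 and 6.9 with siPSF against 5.98 and 5.34 in LNCaP, and -0.99 and -0.52 as its VCaP differences. CIB2 and PLEKHS1 had differences between lines of 1.85 and 1.4 (limma adjusted p = 0.0172 and 0.0204), and in LNCaP both were among the 15 largest increases. IGSF21 differed through VCaP, where it fell by 1.33, beside 0.15 in LNCaP. TSPAN1, a tetraspanin gene, had 11.36 and 11.42 against 10.66 and 10.63 in LNCaP and -0.66 and -0.52 in VCaP. R1881 was 10 nM in LNCaP and 1 nM in VCaP, and dose and line cannot be told apart in the R1881 pairs.

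**Figure D5:**
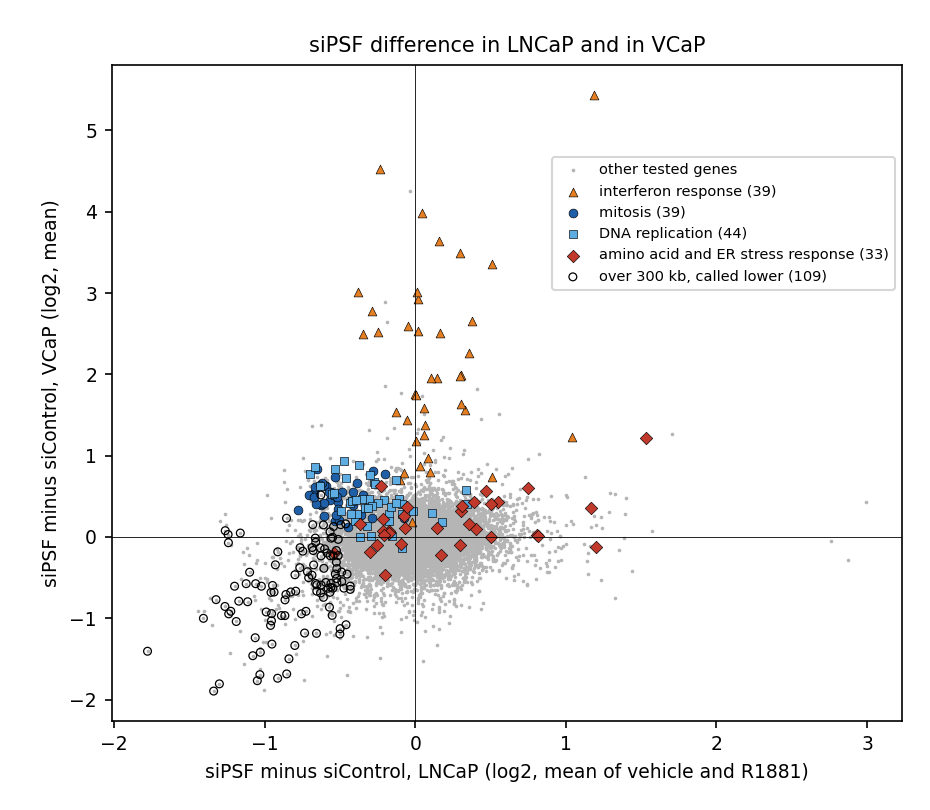
Mean log2 difference between siPSF and siControl over vehicle and R1881 in LNCaP (horizontal axis) and VCaP (vertical axis), 1 point per tested gene; coloured points are gene lists and open circles the 109 genes over 300 kb called lower in LNCaP with 4 arrays. Interferon genes lie high on the VCaP axis at a median of 1.96 and near 0 in LNCaP, most mitosis and replication genes lie to the left and above 0, and 86 of the 109 long genes were lower in both VCaP pairs.

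Within LNCaP the knockdowns of PSF and of CTBP1-AS have their own siControl arrays, so their effects can be subtracted. The siCTBP1-AS effect pools that of set 1 and the one marked #2 in set 2. The limma contrast called 1 gene higher (0.00724%) and 2 lower (0.0145%) with siPSF than with siCTBP1-AS. The counts moved with the arrays used, and without the siControl arrays of replicate 1 they were 585 and 526, and without those of replicate 2 they were 4 and 26. ACTG2 was higher by 2.68 (SE 0.2, adjusted p = 0.0153, limma), with an effect of 2.76 for siPSF and 0.08 for siCTBP1-AS. UGT2B10 was lower by 2.96 (SE 0.24), with -1.27 for siPSF and 1.7 for siCTBP1-AS. IFIT2 was lower by 4.38 (SE 0.41), with -0.35 for siPSF and 4.03 for siCTBP1-AS. Across genes the effects of the pair of siRNAs correlated at 0.06. For the stress list the medians were 0.17 with siPSF and -0.48 with siCTBP1-AS, and for mitosis -0.54 and -0.14. THBS1 differed from siControl by 2.99 with siPSF and by 2.21 with siCTBP1-AS.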

How the data were processed

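RNA of 18 samples was measured on Affymetrix human gene arrays. The deposited log2 values were made by the authors with RMA in Affymetrix Expression Console 1.1.1, per the submitters' processing notes. Medians of the 4 array sets ran from 5.736 to 6.795, so levels were compared within a set. Of 33297 transcript clusters, 19461 carried 1 gene symbol in the platform annotation, 1753 several and 12083 none, and those with several or none were left out. For 769 genes with more than 1 cluster the brightest was kept. Gene lengths came from RefSeq for 99.87% of tested genes, and promoters from RefSeq (GRCh38.p14).

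limma 3.58.1 in R 4.3.3 was fitted to the 12 LNCaP arrays with the array set as a block, R1881, siCTBP1-AS, siPSF and their products with R1881. The siPSF effect is the mean of the vehicle and the R1881 difference. Threshold and filter were an adjusted p of 0.05 and the dimmest 25% of genes. The spread had 4 residual degrees of freedom and a prior of 3.81. The fits of 12 and of 4 arrays were run on simulated data with independent noise at the spread of the 12-array fit. At a simulated difference of 1 they recovered 39 and 40 of 50 genes, and at 0.5 they recovered 3 and 1 of 50. Of 13613 genes with no simulated difference they called 5 and 10. No change of the R1881 response with siPSF was simulated, so the run does not check the calls of the 4-array fit in the real data. Array sets share the siControl replicate number. Among siControl arrays, deviations of vehicle and R1881 arrays of the same number correlated at 0.7 to 0.84. Those of different numbers correlated at -0.64 to -0.09, so the numbers were taken to pair the siControl arrays. That check held no siPSF array, so the place of the siPSF arrays in a set was not tested.

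The rule for named genes took the 15 largest changes each way past the threshold with the same sign in both treatments, up to 5 each way for the other contrasts, PSF's family, and up to 4 called members each way of each list, or the 2 largest where none was called. Since the 12 arrays gave 1 call, the rule was applied to the fit of the 4 arrays, a choice made after the values were seen. Further genes are named as members of the lists or of the long genes. Members and lists were chosen with earlier results of these data known. Alternatives changed the arrays and terms of the fit, the block, the filter, the normalization, the choice of cluster and the spread, and left out arrays.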

Additional observations from a re-analysis of the deposited data

Results flagged for a closer look

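The siPSF effect differed between LNCaP and VCaP for 10 named genes by limma's test of the difference. It was higher in LNCaP by 2.08 for AHNAK2 (adjusted p = 0.0476), 1.85 for CIB2 (0.0172), 1.48 for IGSF21 (0.0204), 1.4 for PLEKHS1 (0.0204) and 1.33 for TSPAN1 (0.0476). The differences for interferon-stimulated genes were -4.76 for IFIT1 (adjusted p = 0.0216), -4.29 for IFITM1 (0.00936), -3.94 for MX1 (5.16e-06), -3.48 for RSAD2 (0.0379) and -3.19 for DDX60 (0.0379), with the larger siPSF effect in VCaP. In LNCaP none of these 5 was called in any of the fits.

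The medians of 4 lists had opposite signs in the lines, with both treatments of each line on the same side. In LNCaP they were -0.31 for DNA replication, -0.54 for mitosis, -0.24 for DNA repair and -0.27 for cholesterol synthesis. In VCaP they were 0.41, 0.49, 0.2 and 0.18 in the same order. The difference between lines was not tested for the lists.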

How the results depend on the processing

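The siPSF effect called 1 gene higher and 0 lower in the fit of 12 arrays. Counts higher were 299 with the 4 arrays alone, 3 with sets 1 and 3, 45 with all 18 arrays, 14 without product terms, 4 with no filter, and 0 without the replicate block or with the dimmest 50% of genes left out, a filter that removes ACTG2. Counts lower were 609, 103 with 18 arrays, 56 without product terms and 1 with no filter. Leaving out arrays gave 0 to 24 higher and 0 to 62 lower, the top values without siControl replicate 1. Against siCTBP1-AS the 1 gene higher became 0 without the replicate block, 2 with no filter and 0 with the 50% filter, and the 2 lower became 0, 6 and 0 under the same settings, 6 with arrays centred on their medians, 1 after quantile normalization and 4 with trend and robust spread. Leaving out arrays gave 4 to 585 higher and 26 to 526 lower. Between the lines the 15 higher became 27 with no filter, 4 with the 50% filter and 8 after quantile normalization, and the 11 lower became 5 with the 50% filter and 7 after quantile normalization. Leaving out arrays gave 90 to 135 higher and 113 to 121 lower. The change of the R1881 response gave 0 calls under each alternative run. The cause of these moves was not tested apart from the filter on ACTG2.

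Over 103 named genes and 15 alternatives, 1348 of 1515 values kept direction and side of the threshold, 135 gained a call, 2 lost it and 30 turned direction, 22 of these without the replicate block. Before any alternative only ACTG2 was called, so both losses are its own. For every other gene, keeping side meant staying uncalled. Only set 3 holds siPSF in LNCaP. Alternatives that kept set 3 whole, its signals and the replicate block therefore could not move a difference. For these reasons the 1348 does not measure how stable the results are. Without that block sets with different medians are compared, and the median of all genes moved to 0.414. Under it IFITM1 had 0.66, RSAD2 -0.95, DDX60 -0.54, FIGN 0.65, CENPN 0.23, RBBP7 0.04, RRM2 0, TTK 0.1, NDC80 0.46, NUF2 0.28, ASPM 0.16, H3C10 0.14, FANCB 0.03, RAD51AP1 0.09, TGFBR1 0.16, IFI44 -0.2, IDI1 0.15, HMGCS1 0.03, DROSHA 0, RPL23 0.25, KLK3 0.56 and PDGFRB 0.21. With centred arrays IFITM1 had 0, and after quantile normalization IFITM1 had 0.02 and MX1 -0.01. With the vehicle or the R1881 pair of set 3 left out, values ran from -0.06 to 0.35 for IGSF21, -0.72 to 0.25 for IFIT1, -0.1 to 0.03 for IFITM1, -0.04 to 0.13 for MX1 and -0.12 to 0.44 for RSAD2. Each siPSF group is 1 array, so no alternative measures how far the knockdown would repeat.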
